A study of Mus musculus with 6 samples.

Results

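The genes described here are 10 genes of the NF-kB system: the 5 subunits Nfkb1, Nfkb2, Rel, Rela and Relb, and the inhibitors and feedback genes Nfkbia, Nfkbie, Bcl3, Tnfaip3 and Traf1. They were chosen by name from the 17369 gene columns of the deposited single-cell table, and all 10 were measured. Both groups were T helper 9 (Th9) cells grown in culture from naive CD4 T cells of mouse spleen and profiled by droplet sequencing at the 3' end of transcripts: 3 wild-type samples and 3 samples from Cblb-/- mice, in which Cblb is disrupted. Cblb encodes a ubiquitin ligase that raises the threshold for T cell activation. All 6 cultures were kept for 48 h in IL-4 (20 ng/ml), anti-interferon-gamma antibody (20 ug/ml) and human TGF-beta (3 ng/ml), and CD4 cells were then purified on beads. The cells are thus a culture product at a single time point. The sources used here do not give the strain, age or number of mice, or whether the 3 samples of a genotype had separate donors or cultures. The p-values below rest on the spread among these samples, which may be technical only. The title of the series ties Th9 cells and IL-9 to tumour rejection in Cblb-/- mice, and the comparison below asks how the NF-kB genes differed between the genotypes.

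NF-kB proteins are dimeric transcription factors that inhibitor proteins of the IkB family hold in the cytoplasm. Signals from the T cell receptor, its co-receptors or tumour necrosis factor receptors lead to destruction of the inhibitor, and the freed dimers enter the nucleus and switch on target genes. Several of these targets encode the system's own parts, among them Nfkbia, Tnfaip3, Nfkb2 and Rel, so that the pathway restrains and renews itself. In T cells it is known for driving activation, survival and cytokine genes.

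The table held 27258 cells, 12755 wild type and 14503 knockout, in libraries of 3902 (A), 4301 (B) and 4552 (C) wild-type cells and 3423 (D), 5666 (E) and 5414 (F) knockout cells. Median raw depth per cell was 35573 to 39628 UMIs (unique molecular identifiers, counts of captured transcripts) between libraries, and the corrected counts that the authors deposited summed to 36012 to 39754 per cell. Levels are given in ppm, a gene's share of a library's corrected counts per 1000000. Cblb was 32.6, 31.1 and 30.9 ppm in wild-type libraries A, B and C and 18.4, 15.02 and 18.0 ppm in knockout libraries D, E and F. Tags outside the disrupted part of the gene could still be counted, which was not tested. The 8 CD4 T cell markers summed to 2314 to 2369 ppm in wild-type libraries and to 2104 to 2253 ppm in knockout libraries. Of the markers of other cell types, the B cell genes Cd79a, Ms4a1 and Pax5 were below 0.5 ppm in every library. The B cell list summed to 3.75 to 4.26 ppm in wild-type libraries and 9.64 to 11.5 ppm in knockout, most of it Cd79b (2.38 to 3.09 against 4.80 to 8.76 ppm) and Ebf1 (0.68 to 0.84 against 2.44 to 4.42 ppm). The list for NK and CD8 T cells summed to 5.96 to 7.39 and 10.3 to 11.5 ppm, most of it Cd8b1. That for myeloid and dendritic cells summed to 1.51 to 2.52 and 2.38 to 4.38 ppm. The mast cell and basophil list summed to 0.92 to 5.79 and 1.04 to 5.31 ppm. Its genes Mcpt8 (1.58 and 0.85 ppm) and Cpa3 (1.23 and 1.13 ppm) were highest in libraries C and F. Of all barcodes, 76 occurred in more than 1 library, at most 10 in any pair, and library E stood nearer to wild type than D and F for several members below, so values without it are given where they matter.

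Because several of these genes are known targets of the factors they encode or restrain, their promoters are shown first. RefSeq windows on GRCm38.p6 (the assembly that mm10 names), from 250 bases before to 50 bases after the start, were found for 8 of the 10 genes. The NF-kB consensus, a motif of 10 bases read on both strands, was found in a window of 6 of these 8: Nfkb2, Rel, Nfkbia, Nfkbie, Bcl3 and Tnfaip3. Windows of 5.14% of all 27025 genes in the RefSeq table held it. A match is a description of letters and does not show binding. The 250 bases before the start are printed 5' to 3' on the gene's strand for 4 genes that hold the consensus (capitals, overlapping matches joined) and for 2 members in which it was not found:
Nfkbia (chr12:55492648-55492897, minus strand): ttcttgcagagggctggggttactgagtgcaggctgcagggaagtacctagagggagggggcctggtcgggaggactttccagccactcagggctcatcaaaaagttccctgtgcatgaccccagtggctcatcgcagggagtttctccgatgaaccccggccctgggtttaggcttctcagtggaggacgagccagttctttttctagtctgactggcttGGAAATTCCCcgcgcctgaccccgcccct
Nfkb2, the first of its 3 windows (chr19:46304487-46304736, plus strand): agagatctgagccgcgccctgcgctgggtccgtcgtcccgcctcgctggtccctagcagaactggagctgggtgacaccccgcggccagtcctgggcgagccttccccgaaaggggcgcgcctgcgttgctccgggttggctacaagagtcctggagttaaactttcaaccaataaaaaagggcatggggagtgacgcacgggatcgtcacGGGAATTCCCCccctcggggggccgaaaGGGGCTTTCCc
Rel (chr11:23770970-23771219, minus strand): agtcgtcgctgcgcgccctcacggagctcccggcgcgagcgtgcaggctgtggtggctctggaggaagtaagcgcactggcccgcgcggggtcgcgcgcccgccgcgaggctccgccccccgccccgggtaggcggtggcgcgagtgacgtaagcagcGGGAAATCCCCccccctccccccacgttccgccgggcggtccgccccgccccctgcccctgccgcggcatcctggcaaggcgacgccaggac
Tnfaip3, the first of its 2 windows (chr10:19015411-19015660, minus strand): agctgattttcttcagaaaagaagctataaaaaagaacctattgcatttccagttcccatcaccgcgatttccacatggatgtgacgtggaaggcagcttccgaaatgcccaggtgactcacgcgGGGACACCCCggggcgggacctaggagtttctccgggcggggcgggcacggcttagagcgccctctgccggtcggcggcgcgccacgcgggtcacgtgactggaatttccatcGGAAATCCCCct
Rela (chr19:5637291-5637540, plus strand): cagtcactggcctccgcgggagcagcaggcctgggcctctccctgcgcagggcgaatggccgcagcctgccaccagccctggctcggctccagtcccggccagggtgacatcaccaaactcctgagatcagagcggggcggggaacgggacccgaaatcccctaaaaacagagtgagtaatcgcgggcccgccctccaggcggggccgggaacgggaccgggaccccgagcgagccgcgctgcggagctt
Traf1 (chr2:34961773-34962022, minus strand): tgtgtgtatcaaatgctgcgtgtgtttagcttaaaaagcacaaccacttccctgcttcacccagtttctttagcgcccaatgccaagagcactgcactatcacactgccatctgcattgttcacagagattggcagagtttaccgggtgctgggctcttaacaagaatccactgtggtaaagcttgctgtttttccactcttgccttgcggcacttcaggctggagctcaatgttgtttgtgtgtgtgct

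In Nfkbia the consensus was read once, as GGGAATTTCC on the strand opposite the gene. Here and below the position is that of the stretch's first base along the gene's strand, 29 bases before the start in Nfkbia. Nfkb2 held it in all 3 windows, and in the printed one GGGAATTCCC lay 39 bases and GGGGCTTTCC 11 bases before the start. In Rel GGGAAATCCC lay 92 bases before the start. Tnfaip3 held GGGACACCCC 125 bases before the start and GGGGATTTCC, on the opposite strand, 12 bases before it; the latter stretch is in capitals as it reads on the gene's strand. Nfkbie had GGGGGATTCC 106 bases before its start, and Bcl3 GGGACTTCCC on the opposite strand just after its start, at position 3 counted from the first transcribed base.

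Across all cells, 8 of the 10 genes rose in Cblb-/- libraries. The test was limma on log2(ppm + 1) over 8475 genes with Benjamini-Hochberg adjustment, and a call is an adjusted p under 0.05. The rises were largest for Traf1, Bcl3 and Nfkb2, at 1.71-fold to 1.91-fold, and smallest for Nfkb1, at 1.18-fold. Rela and Relb were not called. In all genes tested, 11% were called higher and 13.4% lower. The median log2 difference of the 10 genes was 0.43 and that of all genes tested -0.01. For all 10 genes the lowest knockout library lay above the highest wild-type library, which held in the same direction for 19.7% of all genes and in the opposite direction for 25.6%.

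**Figure D1:**
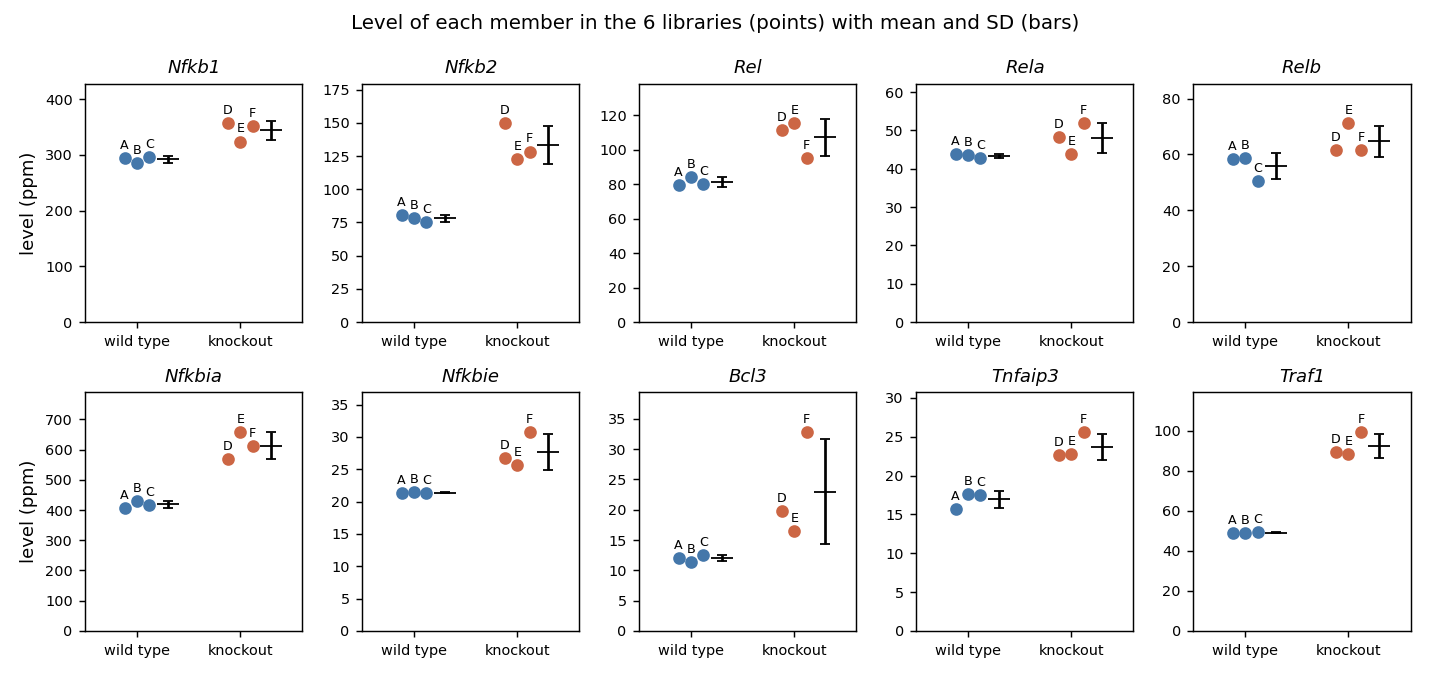
Level of each of the 10 genes (ppm of a library's corrected counts, linear axes from 0) in wild-type libraries A, B and C and knockout libraries D, E and F (points), with mean and SD (bars). In every panel the knockout points lie above the wild-type points, narrowly for Rela (43.8 ppm in A, 43.9 ppm in E) and widely for Traf1 (49.2 ppm in C, 88.6 ppm in E).

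Nfkb1 and Nfkb2 encode precursor proteins that act as inhibitors until they are processed to DNA-binding subunits without an activation domain of their own. Nfkb1 (ENSMUSG00000028163, chromosome 3, 135584655 to 135691547, minus strand, mm10, as are the other positions below) was at 295.3, 284.7 and 295.5 ppm in A, B and C and 356.6, 324.0 and 351.3 ppm in D, E and F. The groups did not overlap, with E the lowest knockout library. The log2 difference was 0.24 (SE 0.05, limma adjusted p = 0.0112), and it missed the threshold without library B (limma adjusted p = 0.0537). Nfkb2 (ENSMUSG00000025225, chromosome 19, 46304320 to 46312385, plus strand), the precursor of the noncanonical branch, was at 80.8, 78.4 and 75.3 ppm in wild-type libraries and 149.6, 122.7 and 128.4 ppm in knockout. Each knockout library was above every wild-type library by more than the spread within either group. The log2 difference was 0.76 (SE 0.07, limma adjusted p = 0.000961).

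Whether the precursors changed by different amounts was asked with the log2 ratio of Nfkb2 to Nfkb1 in each library, the first of 5 such pairs. It was -1.86, -1.85 and -1.96 in wild type and -1.25, -1.39 and -1.44 in knockout, a difference of 0.53 without overlap. The exact two-sided permutation test gave p = 0.1, the smallest that 3 libraries against 3 allow (adjusted over 5 pairs, 0.25). Nfkb2 was therefore higher relative to Nfkb1 in all knockout libraries, by a test that cannot pass 0.05.

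Rel, Rela and Relb encode the subunits with an activation domain, of which c-Rel and RelA serve the canonical branch and RelB partners the processed product of Nfkb2. Rel (ENSMUSG00000020275, chromosome 11, 23736847 to 23770970, minus strand) was at 79.5, 84.4 and 80.1 ppm in wild-type libraries and 111.6, 115.3 and 95.02 ppm in knockout libraries. It rose, with F the lowest of the knockout libraries and still above all wild-type ones (log2 difference 0.39, SE 0.07, limma adjusted p = 0.00921). Rela (ENSMUSG00000024927, chromosome 19, 5637483 to 5648130, plus strand) was at 43.8, 43.5 and 42.8 ppm in wild-type libraries and 48.3, 43.9 and 51.8 ppm in knockout libraries. Library E was level with wild type, and D and F were above it. The log2 difference was 0.14 (95% interval -0.00091 to 0.28, limma adjusted p = 0.129), so the data allow a rise of the size seen for Nfkb1. Without library E it was 0.20 (limma adjusted p = 0.0128).

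Relb (ENSMUSG00000002983, chromosome 7, 19606217 to 19629438, minus strand) was at 58.4, 58.8 and 50.5 ppm in wild-type libraries and 61.4, 71.1 and 61.4 ppm in knockout libraries. The lowest wild-type library was C and the highest knockout library E, and the groups came close. The log2 difference was 0.21 (95% interval 0.02 to 0.39, limma adjusted p = 0.0926). The log2 ratio of Rel to Rela differed by 0.25 between genotypes and overlapped (exact permutation p = 0.3, adjusted over 5 pairs 0.5). For Relb to Rela the difference was 0.07 (exact permutation p = 0.8, adjusted 0.8). A larger change of Rel than of Rela was thus not resolved with these libraries.

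Nfkbia and Nfkbie encode the IkB proteins alpha and epsilon, which bind NF-kB dimers and keep them out of the nucleus. Nfkbia (ENSMUSG00000021025, chromosome 12, 55489410 to 55492647, minus strand) was at 407.9, 429.8 and 417.7 ppm in wild-type libraries and 567.2, 657.8 and 613.4 ppm in knockout libraries. The gap between the groups was wider than the range of either (log2 difference 0.55, SE 0.06, limma adjusted p = 0.0013). Nfkbie (ENSMUSG00000023947, chromosome 17, 45555703 to 45563169, plus strand) was at 21.3, 21.5 and 21.4 ppm in wild-type libraries and 26.7, 25.6 and 30.7 ppm in knockout libraries. Its rise of 0.35 on the log2 scale (SE 0.07, limma adjusted p = 0.0111) missed the threshold without library C (limma adjusted p = 0.0513). The log2 ratio of Nfkbie to Nfkbia differed by -0.19 between genotypes (exact permutation p = 0.1, adjusted over 5 pairs 0.25), but the groups barely separated, with B at -4.26 and F at -4.27. With a pseudocount of 0.1 in place of 1 they overlapped (B -4.32, F -4.31, exact permutation p = 0.2), so a lower ratio in knockout libraries was not resolved.

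Bcl3 encodes a nuclear member of the IkB family that binds subunits without an activation domain and can turn them into activators. Bcl3 (ENSMUSG00000053175, chromosome 7, 19808462 to 19822770, minus strand) was at 12.1, 11.5 and 12.6 ppm in wild-type libraries and 19.7, 16.4 and 32.8 ppm in knockout libraries. Wild-type libraries were close together, and knockout library F was well above D and E. The log2 difference was 0.82 (SE 0.21, limma adjusted p = 0.0271). It was 0.54 without F (limma adjusted p = 0.00962) and 1.02 without E (0.00558 by the same test). Without A, B or C the limma adjusted p was 0.0842, 0.0855 and 0.0835, so this is the least secure of the 8 calls.

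Tnfaip3 encodes a ubiquitin-editing enzyme that shuts off signalling upstream of the IkB kinase. Tnfaip3 (ENSMUSG00000019850, chromosome 10, 19000910 to 19015657, minus strand) was at 15.6, 17.6 and 17.5 ppm in wild-type libraries and 22.7, 22.7 and 25.6 ppm in knockout libraries, and the groups did not overlap. It rose by 0.46 on the log2 scale (SE 0.07, limma adjusted p = 0.00481). The log2 ratio of Tnfaip3 to Nfkbia differed by -0.09 between genotypes and overlapped (exact permutation p = 0.6, adjusted over 5 pairs 0.75). Traf1 encodes an adaptor of tumour necrosis factor receptors and is a classic NF-kB target. Traf1 (ENSMUSG00000026875, chromosome 2, 34941750 to 34961772, minus strand) was at 49.0, 49.1 and 49.2 ppm in wild-type libraries and 89.2, 88.6 and 99.3 ppm in knockout libraries. The wild-type libraries were nearly identical and all knockout libraries far above them, and the log2 difference was 0.90 (SE 0.05, limma adjusted p = 0.000103).

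**Figure D2:**
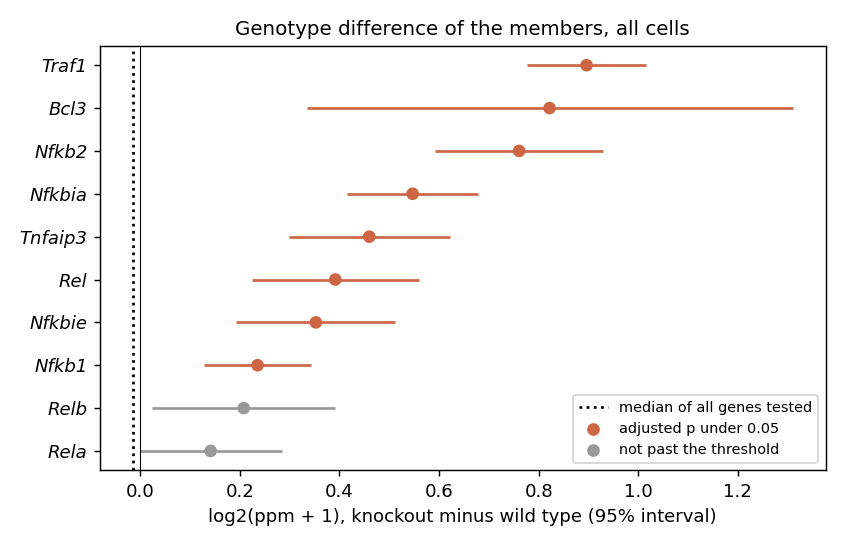
Knockout minus wild-type difference of each gene on the log2(ppm + 1) scale (points) with the 95% interval of the limma fit (lines), ordered by size. The dotted line is the median of all genes tested, -0.01. Bcl3 has the widest interval, and Rela and Relb, in grey, did not pass the adjusted threshold.

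The number of calls was the same under 3 other choices of cells. With each deposited cluster given the same weight in every library 8 of the 10 were called, with log2 differences such as 0.49 for Nfkbia, 0.27 for Nfkbie and 0.87 for Bcl3. Without cells that held more than a single corrected count of a marker of B, myeloid, mast, NK, CD8 T or red cells, 8 were called as well. Among cells within 20% of the median raw depth 8 were also called. In the last set the log2 difference of Traf1 was 0.89 and that of Tnfaip3 0.42.

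The share of cells with a value of at least 1 moved with the summed level. Traf1 was seen in 76.1%, 76.3% and 76.7% of wild-type cells and in 89.3%, 88.6% and 90.8% of knockout cells. Bcl3 was seen in 32.6%, 30.2% and 32.3% of wild-type cells and in 45.6%, 39.5% and 60.6% of knockout cells, with F again the highest. For Tnfaip3 the mean share was 40.1% ± 1.85 in wild type and 50.9% ± 2.45 in knockout (SD, n = 3 libraries each), and for Nfkbie 48.6% ± 0.14 and 57.3% ± 3.75. Nfkb1 and Nfkbia were seen in over 99% of cells of every library. Of the 10 genes, 8 had higher shares in knockout libraries without overlap, as had 17.8% of all genes tested, while 23.1% had lower ones. Each of the 8 gave exact permutation p = 0.1, the smallest possible (adjusted over 10 genes, 0.125). Shares of Rela (78.3% ± 0.38 and 81.3% ± 3.96) and Nfkb1 overlapped. No captured cell type is known to lack these genes, so no background share from free RNA could be set beside them.

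For Nfkbia, which nearly every cell of both genotypes held, the values of the cells as a whole were higher. Its median value per cell was 12.5, 13 and 12 in A, B and C and 18, 21 and 20 in D, E and F. The upper 5% of cells began at 39, 40 and 40 and at 50, 58 and 53. Among cells with at least 1, the mean value of Bcl3 was 1.41, 1.44 and 1.48 in wild type and 1.65, 1.58 and 2.07 in knockout. At such low counts this mean and the share both follow the overall level. Whether the level in positive cells rose apart from the share was not tested. The values are corrected to a common depth by the authors, which keeps their whole numbers but not the raw counts.

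The authors deposited clusters 0 to 6, and clusters 0 to 5 had at least 50 cells in every library. Cluster 6, with 24 cells, was not used. Judged by their leading genes, cluster 0 was led by Tmem176b and Tmem176a, cluster 1 by Socs2 and Ikzf4, cluster 2 by Il9 and Batf3, cluster 3 by Ifng, Ccl3 and Ccl4, cluster 4 by Ccl20, and cluster 5 by Akr1c18. The clusters were made from genes of these same cells, so the levels across them are a description with no test.

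Nfkbia was highest in the Ccl20 cluster in wild type, at 569.2 ppm ± 11.2, and lowest in the Akr1c18 cluster, at 363.9 ppm ± 23.0 (SD, n = 3 libraries each). In wild type the order by mean was 4, 2, 0, 3, 1 and 5, in which clusters 2 and 0 and clusters 1 and 5 did not differ beyond their spread. In knockout libraries the range was narrower, 701.4 ppm ± 57.5 in cluster 4 to 550.9 ppm ± 82.9 in cluster 5, and no neighbours differed beyond their spread. Nfkbie had the same top cluster, 31.7 ppm in wild-type libraries and 35.4 ppm in knockout, against 17.8 ppm in wild-type cells of cluster 1. Neighbouring clusters 4, 0 and 3 did not differ beyond their spread in wild type.

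Bcl3 had another order. It was at 15.9 ppm ± 1.28 in the Il9 cluster of wild type and at 6.97 ppm ± 0.76 in the Ccl20 cluster, a 2.29-fold range, the widest of the 10 genes in wild type. In knockout libraries it ran from 27.8 ppm ± 8.81 in cluster 1 to 9.68 ppm ± 1.69 in cluster 3. Rel was highest in the Ifng cluster in both genotypes, 125.7 ppm ± 0.39 in knockout libraries against 101.1 ppm ± 5.91 in wild-type libraries. Nfkb2, Tnfaip3 and Traf1 were highest in the Il9 cluster in wild type, at 93.6, 23.0 and 65.3 ppm. For Tnfaip3 that cluster overlapped cluster 4, and its lowest library (21.5 ppm) was just above the highest of cluster 0 (20.6 ppm). Rela was nearly flat, from 45.6 to 41.9 ppm across wild-type clusters, a 1.09-fold range, and Relb ranged 1.13-fold.

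**Figure D3:**
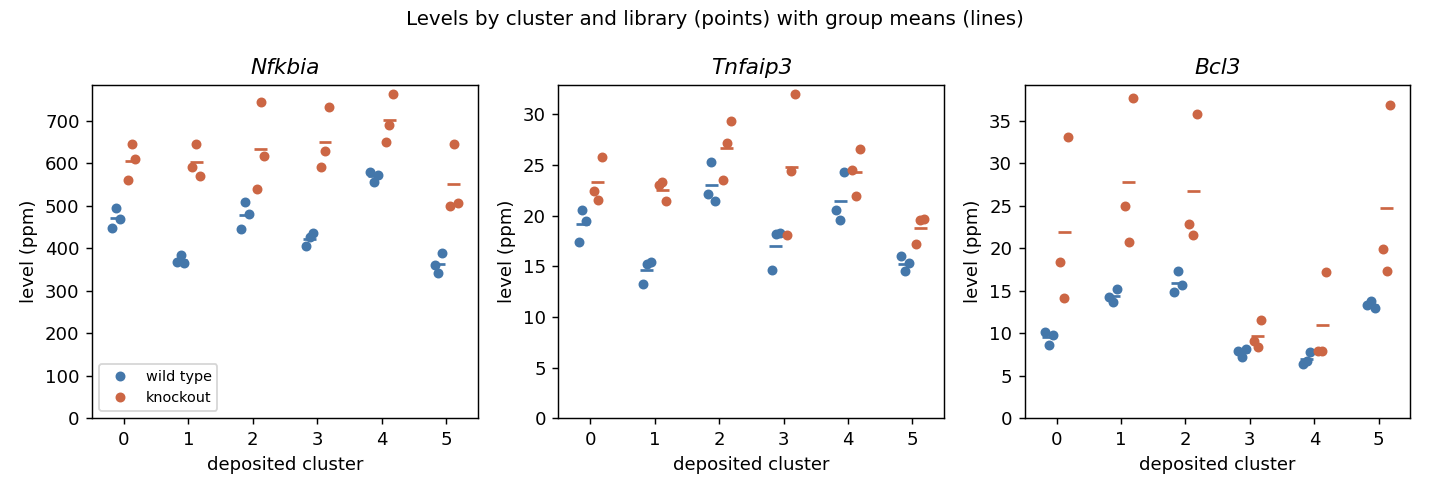
Levels of Nfkbia, Tnfaip3 and Bcl3 (ppm within the cluster, linear axes from 0) in deposited clusters 0 to 5, 1 point per library with group means as short lines, wild type in blue and knockout in orange. The wild-type lines for Nfkbia vary between clusters more than the knockout lines do, and Bcl3 is low in clusters 3 and 4 in both genotypes.

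Within clusters the genotype difference was fitted again, each time over all genes, and 33 of 60 gene-by-cluster differences of the 10 genes were called, all higher in knockout libraries. Nfkb2, Nfkbia and Traf1 were called in all 6 clusters. Nfkb2 was higher by 0.60 (cluster 2) to 0.85 (cluster 4) on the log2 scale, and Traf1 by 0.58 (cluster 4) to 1.02 (cluster 3). Nfkbia was higher by 0.30 in cluster 4, 0.36 in cluster 0 and 0.40 in cluster 2, and by 0.59, 0.62 and 0.69 in clusters 5, 3 and 1. Limma adjusted p lay between 4.17e-05 and 0.0170 for these 18 differences. Rela was called in no cluster, with log2 differences of 0.08 to 0.19, of which the one in cluster 4 had an unadjusted limma p of 0.0470.

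By cluster, 9 of the 10 genes were called in cluster 1 (9.22% of all genes called higher there), 7 in cluster 0 (9.06%), 5 in cluster 3 (4.54%), 5 in cluster 4 (5.33%), 4 in cluster 2 (8.39%) and 3 in cluster 5 (4.9%). Bcl3 was called in cluster 0 (1.04), cluster 1 (0.86) and cluster 2 (0.68). Its values in the others were 0.27 in cluster 3, 0.50 in cluster 4 and 0.76 in cluster 5 (limma adjusted p = 0.348, 0.178 and 0.0516). Nfkb1 and Rel were called in 4 clusters each, Nfkbie in clusters 0 and 1, and Tnfaip3 and Relb in cluster 1. In library D cluster 3 held 61 cells and cluster 5 held 78, and the part of cell number in the calls was not tested.

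Of the 33 calls, 22 held whichever library was left out. For Nfkb2 and Traf1 these were all 6 clusters, for Nfkbia 5 and for Rel 2. For Bcl3, Nfkb1 and Tnfaip3 it was the call in cluster 1. Without A the total was 22 calls and without E it was 38.

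**Figure D4:**
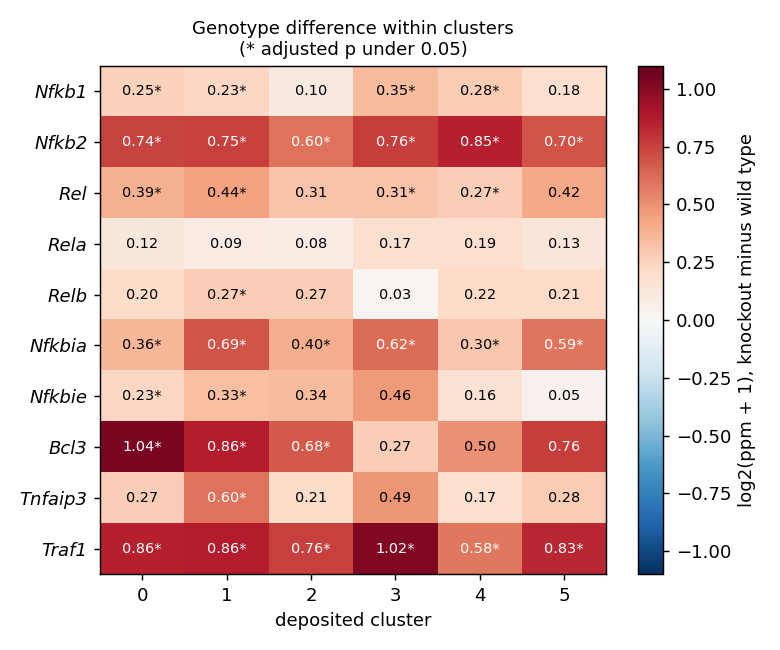
Knockout minus wild-type difference of the 10 genes (rows) in deposited clusters 0 to 5 (columns) on the log2(ppm + 1) scale, with the value in each cell and an asterisk where the limma adjusted p was under 0.05. The rows of Nfkb2, Nfkbia and Traf1 carry an asterisk in all 6 columns and the row of Rela in none.

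Whether the genotype difference itself varied between clusters was tested on each cluster's offset, its level minus that of all other cells of the same library (log2). Nfkbia in cluster 0 stood 0.25 above the other cells in wild type and 0.04 below in knockout (offsets 0.25 and -0.04), so the genotypes differed by -0.29 (SE 0.02, limma adjusted p = 2.94e-05). In cluster 1 it was the reverse: the offset was -0.29 in wild type and -0.03 in knockout, a difference of 0.26 (limma adjusted p = 0.00588, and 0.0562 without C). In cluster 4 the offset was 0.46 in wild type and 0.21 in knockout (difference -0.25, limma adjusted p = 0.0104). The 3 clusters with the most Nfkbia in wild type had genotype differences of 0.30 to 0.40, and the other 3 of 0.59 to 0.69. These differences subtract the wild-type levels that rank the clusters, so this order is partly built in and was not tested. The cluster 4 result missed the threshold without A, C or E, with limma adjusted p = 0.0705, 0.0564 and 0.0564.

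Tnfaip3 in cluster 0 had offsets of 0.25 in wild type and -0.05 in knockout (difference -0.30, limma adjusted p = 0.00475). Traf1 in cluster 4 had offsets of 0.06 and -0.28 (difference -0.34, limma adjusted p = 0.0094, and 0.0619 without E). In the Il9 cluster the offsets of Nfkb1 were 0.12 in wild type and -0.02 in knockout (difference -0.14, limma adjusted p = 0.0174). Those of Nfkb2 were 0.27 and 0.11 (difference -0.16, limma adjusted p = 0.0261). Both cluster 2 results missed the threshold without A, C, D or F, with limma adjusted p of 0.065, 0.0603, 0.0806 and 0.0775 for Nfkb1 and 0.0777, 0.0934, 0.112 and 0.122 for Nfkb2. With no filter on low genes the call for Nfkbia in cluster 0 was the only 1 of the 7 to pass. The share of all genes called for an offset, in either direction, was 4.01% in cluster 0, 3.05% in cluster 1, 6.48% in cluster 2, 0.0715% in cluster 3, 2.98% in cluster 4 and 0.131% in cluster 5.

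The other cells did not have the same make-up in both genotypes. Cluster 0 held 31.4% to 32.0% of the cells of wild-type libraries and 46.6% to 55.1% of knockout cells. Cluster 1 held 43.1% to 46.1% and 17.5% to 31.1%, and cluster 2 held 3.86% to 5.87% and 10.1% to 18.0%. Cluster 3 held 8.68% to 8.94% and 1.78% to 3.28%. For cluster 4 the shares were 2.57% to 3.49% and 5.70% to 6.37%, and for cluster 5 they were 6.28% to 7.18% and 2.28% to 2.61%. An offset difference can therefore mix this make-up with a genotype difference that varies. With the other clusters at the same weights in every library, a comparison added after seeing the data, 5 of the 7 calls were kept. Nfkbia was at -0.22 in cluster 0 and 0.29 in cluster 1 (limma adjusted p = 0.000317 and 0.00317). The calls of Tnfaip3 in cluster 0 (-0.18, limma adjusted p = 0.0995) and Nfkbia in cluster 4 (-0.20, limma adjusted p = 0.0638) were lost, and Tnfaip3 in cluster 1 passed (0.33, limma adjusted p = 0.0475).

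Il9, the cytokine that names these cells, was itself higher in knockout libraries, at 270.8, 166.2 and 245.2 ppm in wild-type libraries and 915.3, 461.1 and 787.8 ppm in knockout. The 10 genes were therefore also compared within each library between Il9-rich cells, with a value of 10 or more (448 to 1426 cells per library) and Il9-zero cells (709 to 2515). With the library as a block, 6 of the 10 were called by limma. In all genes tested, 22.8% were called higher and 32.5% lower in the cells rich in Il9, so a call in this contrast was common. Of the Il9-rich cells, 37.1% to 41.1% in wild-type libraries and 52.6% to 62.1% in knockout libraries lay in cluster 2. No Il9-zero cells did. Median raw depth was higher in the Il9-rich cells in A, B and C (42185 against 37998 UMIs in A) and lower in D and F (40260 against 44185 in F), and the part of depth in the result was not tested.

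Bcl3 was higher in Il9-rich cells in 6 of 6 libraries. It was at 13.7, 15.3 and 15.01 ppm in the Il9-rich cells of A, B and C against 10.8, 9.62 and 11.3 ppm in their Il9-zero cells. In D, E and F it was at 23.8, 22.1 and 37.8 ppm against 16.8, 13.5 and 28.4 ppm. The log2 difference was 0.48 (SE 0.05, limma adjusted p = 6.87e-06). Traf1 (0.25, limma adjusted p = 4.24e-05) and Tnfaip3 (0.16, limma adjusted p = 0.000941) were also higher in 6 of 6 libraries. Nfkb2 was higher by 0.08 in 4 of 6 (limma adjusted p = 0.0241).

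Nfkbie went the other way. It was at 18.4, 18.5 and 16.7 ppm in Il9-rich cells of wild type against 23.3, 22.7 and 23.5 ppm, and at 20.8, 20.7 and 27.5 ppm in those of knockout libraries against 30.1, 28.4 and 33.3 ppm. It was lower in 6 of 6 libraries (log2 difference -0.38, SE 0.04, limma adjusted p = 6.22e-06). Rel was lower in 5 of 6 (log2 difference -0.09, limma adjusted p = 0.028). Nfkbia, Nfkb1, Rela and Relb were not called, with differences of -0.01, 0.06, -0.00 and 0.02. Leaving out A, B or C ended the call of Nfkb2 (limma adjusted p = 0.0822, 0.0799 and 0.0693), and leaving out C, D or F that of Rel (limma adjusted p = 0.067, 0.0664 and 0.0885). Nfkb1 passed without D or F (limma adjusted p = 0.0395 and 0.041).

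Within clusters 0, 1 and 5, the 3 with enough cells of both kinds, Bcl3 (0.45), Traf1 (0.25) and Tnfaip3 (0.28) were called again (limma adjusted p = 0.00161, 0.00197 and 0.00972), as was Nfkb1 (0.11, limma adjusted p = 0.00287). Nfkbie was at -0.14 there (limma adjusted p = 0.201), so its lower level in Il9-rich cells was not resolved within clusters. Nor were the differences of Nfkb2 (0.08, limma adjusted p = 0.144) and Rel (-0.03, limma adjusted p = 0.6). With Il9-rich cells defined by a value of at least 1, 4 genes were called. Bcl3 (0.34) and Traf1 (0.12) were higher, and Nfkbie (-0.22) and Nfkbia (-0.04, limma adjusted p = 0.0143) lower. Tnfaip3 (0.05, limma adjusted p = 0.0842), Nfkb2 (0.01, limma adjusted p = 0.731) and Rel (-0.04, limma adjusted p = 0.184) were not called at this minimum.

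**Figure D5:**
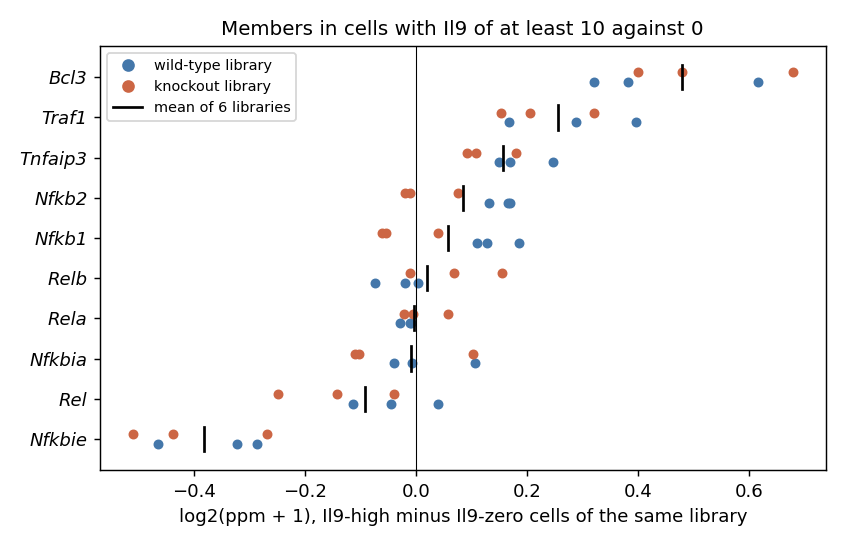
Difference between Il9-rich cells (value 10 or more) and Il9-zero cells of the same library, on the log2(ppm + 1) scale, for the 10 genes (rows), 1 point per library and a vertical bar at the mean of 6. All 6 points of Bcl3, Traf1 and Tnfaip3 lie right of 0 and all 6 of Nfkbie left of it.

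From cell to cell within a library, the strongest pairing was that of Nfkbia with Tnfaip3 (Pearson r of log values 0.31 to 0.36 over the 6 libraries, median 0.34). It was positive in all 36 library-by-cluster sets. Nfkbia with Traf1 had a median of 0.32 and Nfkb2 with Traf1 of 0.24, again positive in all 36 sets. At the other end were Bcl3 with Nfkb2 (median -0.03) and with Rel (-0.02), which were positive in 16 and 12 of the 36 sets. Cells of a library share its depth and preparation, and low counts weaken any correlation, so these are descriptions.

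Over the 36 library-by-cluster profiles (6 libraries by 6 clusters), the correlation of each gene with the mean of the others was 0.92 for Nfkb2, 0.90 for Traf1 and 0.88 for Nfkbia. It was 0.39 for Relb and 0.23 for Bcl3, the 2 that followed the rest least. The non-member genes whose profiles were most like the mean of the 10 were Tapbpl (r = 0.94), Zeb2 (0.93), Ctsl (0.93), Myo1c (0.93), Slc15a3 (0.93) and Map3k20 (0.93). The 36 profiles share 6 libraries and the genotype difference between them.

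The rest of the pathway was read from lists of its genes, beside the 11% of all genes tested that were called higher and the 13.4% called lower. The lists were chosen with earlier results of these data known, so their shares are descriptions. Of 17 tested genes that carry the signal from the T cell receptor and its adaptors to the kinases, 2 rose and 2 fell, a share near that of all genes in each direction, with a median log2 difference of 0.04. The kinase-binding adaptor Tab2 (0.37) and the noncanonical kinase Map3k14 (0.28) rose (limma adjusted p = 0.0023 and 0.0406). The kinase Map3k7 (-0.39) was among the genes that fell (limma adjusted p = 0.00685). The catalytic kinase genes Chuk (25.9 and 27.8 ppm) and Ikbkb (52.9 and 54.2 ppm in wild-type libraries and knockout) were not called. Of 8 other TRAF and IAP genes none rose and Traf5 (-0.53, limma adjusted p = 0.0023) fell, while Traf2 was at 23.3 and 20.9 ppm. With TMM or median-of-ratios scaling 2 of these 8 were called higher. Of 4 genes of linear ubiquitin chains Otulin, which cuts such chains, rose (0.24, limma adjusted p = 0.0374), a call that was kept without D and lost without any other library. In the signal list 1 rise was called without A, B, C, D or F and 2 without E.

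Of 21 other inhibitors and brakes 5 rose and none fell, with a median log2 difference of 0.04. They were Nfkbib (0.44), which encodes IkB beta, Tnip1 (0.23), Cyld (0.21), Otud7b (0.17) and Tnip3, which encodes a partner protein of the Tnfaip3 enzyme. Tnip3 was at 2.40, 2.04 and 1.89 ppm in wild-type libraries and 10.4, 4.47 and 14.3 ppm in knockout libraries, and it passed the filter of 5 ppm only through the latter, so its call supports nothing. Without it 4 of 20 rose, with a median of 0.03. Only 1 of the 21 was called without A, B or C, against 4, 6 and 3 without D, E and F. Of 27 tested genes of a list of known NF-kB targets in lymphocytes 20 rose and Ltb (-0.33) fell, with a median of 0.51. Ltb was not called with TMM or median-of-ratios scaling, with no filter, with clusters at common weights or with limma without trend. Nor was it called without A, B, C or D. Among the rises were the stress gene Ier3 (1.55, 7.83 to 27.1 ppm by mean) and the chemokine gene Ccl20 (1.22, 28.1 to 66.8 ppm), with limma adjusted p = 0.0161 and 0.0013. Ccl20 was at 766.5 ppm in cluster 4 and 12.3 ppm in the other cells. That cluster held 2.57% to 3.49% of the cells of wild-type libraries and 5.70% to 6.37% of knockout cells. The part of this make-up in the rise of Ccl20 was not tested. The cytokine gene Csf2 was at 1.24, 0.39 and 0.66 ppm in wild-type libraries and 38.1, 15.5 and 17.0 ppm in knockout libraries. It too passed the filter only through the knockout libraries, and 19 of 26 rose without it, with a median of 0.51. Without A, B or C there were 14, 14 and 15 rises in this list. Several of its genes respond to other activation signals as well.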

How the data were processed

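Single-cell 3' libraries of 6 samples were read from a table in which the authors deposited score values, whole-number counts per gene and cell corrected for depth by sctransform (per the file headers). The deposited table also holds each cell's raw UMI count, the percent of mitochondrial UMIs (highest 15.2) and the authors' clusters. Cell Ranger 3.0.2, Seurat 3.0.0 and the build mm10 are named in the submitters' processing notes, without settings. Since the counts are corrected, tests that assume raw counts were not run. The table ties libraries to genotype but not to a sample, so the wild-type libraries are named A, B, C here and the knockout libraries D, E, F. The lowest raw total was 15006 UMIs, and doublets were not treated.

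Corrected counts were summed per library, and per library and cluster, and scaled to ppm. All genes averaging 5 ppm or more were fitted on log2(ppm + 1) with limma 3.58.1 (R 4.3.3, trended prior, two-sided), with Benjamini-Hochberg adjustment over all of them. Fold values are ratios of mean ppm, and log2 differences understate changes of low genes. Shares and ratios had exact two-sided permutation tests over libraries (scipy 1.17.1). Positions are from GENCODE M21. The fit was tested on simulated data. The 10 genes, the pathway and marker lists and the tests were chosen with earlier results of these data known. The text names the 10 genes, Cblb, Il9, marker genes, up to 3 rises and 3 falls per pathway list, and the 6 genes of most similar profile. Some genes of the lists are not reported here by name. Chuk, Ikbkb, Traf2, Cyld and Otud7b were added after their values were seen. Alternatives are given in the closing section.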

Additional observations from a re-analysis of the deposited data

Results flagged for a closer look

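In 7 gene-by-cluster tests of the offset from the other cells the genotypes differed (limma adjusted p under 0.05), and each is given here as knockout minus wild type on the log2 scale. Nfkbia differed by -0.29 in cluster 0, by 0.26 in cluster 1 and by -0.25 in cluster 4. Tnfaip3 differed by -0.30 in cluster 0 and Traf1 by -0.34 in cluster 4. In cluster 2, Nfkb1 differed by -0.14 and Nfkb2 by -0.16. The other cells differ in make-up between the genotypes, and with their clusters at common weights Tnfaip3 in cluster 0 and Nfkbia in cluster 4 were not called. The contrast between Il9-rich and Il9-zero cells also differed between genotypes for a pair of genes, a test that was added after seeing the data. For Nfkb1 the contrast was 0.14 in wild type and -0.03 in knockout (difference -0.17, SE 0.03, limma adjusted p = 0.00308), and for Nfkb2 it was 0.15 and 0.01 (difference -0.14, SE 0.03, limma adjusted p = 0.0191). In that test 901 of 8519 genes were called. Il9-rich cells had a higher median raw depth than Il9-zero cells in A, B and C, a lower one in D and F and nearly the same in E. Of the Il9-rich cells, 37.1% to 41.1% in wild-type libraries and 52.6% to 62.1% in knockout libraries lay in cluster 2. The parts of depth and cluster make-up in this test were not tested.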

How the results depend on the processing

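Of the 10 genes, 6 to 9 were called over all cells under the 17 alternatives run: other scalings, pseudocounts and filters, cell subsets, equal cluster weights, limma without trend and leaving out each library. Nfkb2, Rel, Nfkbia, Tnfaip3 and Traf1 were called in all of them, and Relb in none. At the filter of 20 ppm Bcl3 was not tested. Tnfaip3 (16.9 ppm by mean in wild type, 23.7 ppm in knockout) passed that filter only through the knockout libraries, so its call there supports nothing. Rela passed with TMM scaling (limma adjusted p = 0.0447) and without E, and Bcl3 missed the threshold with no filter (0.0529) and with logarithms averaged over cells (0.0574). The number of genes called higher was 929, against 1433 with no filter, 547 at a filter of 20 ppm and 396 to 1750 with a library left out. The number called lower was 1139, against 381 to 1396 with a library left out. The offset calls of the 10 genes numbered 7, against 1 with no filter and 4 to 8 with a library left out (4 without A and 4 without C) and 6 with the other clusters at common weights. Gene pairs whose log2 ratios did not overlap numbered 2, and 1 with a pseudocount of 0.1, which ended the separation of Nfkbie to Nfkbia. Small, uncalled values changed sign. With a library left out, Relb in cluster 3 ran from -0.049 to 0.10, Nfkbie in cluster 5 from -0.013 to 0.087, the Relb to Rela ratio difference from -0.064 to 0.16 and the Nfkb1 share difference from -0.0097 to 0.025 points. In the Il9 contrast the same ranges were -0.016 to 0.0011 for Rela, -0.0072 to 0.039 for Relb and -0.032 to 0.011 for Nfkbia. Within clusters the values were 0.025, -0.085 and 0.060, and Rela was 0.0037 with a minimum of 1. No paired analysis was possible because the libraries in the table carry no replicate number. Low genes such as Bcl3 and Tnfaip3 have a value of at least 1 in under 61% of cells, which limits what can be read per cell.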
